A study of Saccharomyces cerevisiae with 12 samples.

Results

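Transcripts for DNA replication and deoxynucleotide synthesis were followed in Saccharomyces cerevisiae from growth into stationary phase, with 47 genes picked by their symbol in the platform annotation out of 5449 yeast genes on the array. They cover origin recognition, the replicative helicase and its loader, origin firing, the replicative polymerases, the sliding clamp and its loader, single-strand binding, strand joining, ribonucleotide reductase and thymidylate synthase. Each of the 47 had 1 probe set, and all 47 stood above the background level of 5.82 at every time, which is the 95th percentile over 1746 probe sets of another yeast species. The strain was CENPK 113-7D, a laboratory strain, in SD medium (a defined medium) with 2% glucose. Total RNA was measured on 12 arrays: 3 per time, for log phase and for days 2, 6 and 10. Day 0 differs between the labels (stationary phase) and the series text (start of cultivation) and could not be fixed. Nothing names separate cultures behind the 3 arrays, and p-values therefore describe their spread, which may be technical.

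Replication begins where the origin recognition complex and Cdc6 load the Mcm2-7 helicase in G1. A kinase made of Cdc7 and Dbf4, together with Sld3, Cdc45 and the GINS complex, then turns the loaded helicase into a working fork. Polymerase alpha-primase lays down primers, the RFC complex loads the clamp PCNA onto them, and polymerases delta and epsilon extend them. Deoxynucleotides come from ribonucleotide reductase, which pairs a large subunit (Rnr1, or its damage-inducible relative Rnr3) with the small subunits Rnr2 and Rnr4. Many of these genes are transcribed at the start of S phase in dividing cells, and cells in stationary phase mostly rest unbudded. In a bulk extract, fewer cells in S phase and less RNA per cell cannot be told apart.

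Values are the authors' deposited log2 signals, and a change is a difference of log2 means with its standard error (SE) from a limma fit to all 12 arrays. Calls were made below an adjusted p of 0.05, with the adjustment over all 5449 genes. Array medians lay between 7.80 and 7.89, so a change is relative to the median gene and not to the amount of RNA per cell. Arrays were also centred on 27 probe sets of hybridisation controls, which are added transcripts of bacteria and a phage. Nothing in the sources used here ties their amount to a number of cells, so this centring does not give RNA per cell either. Under it the median gene moved by -0.42 on day 2, -1.19 on day 6 and -0.97 on day 10 against log phase. At these days 0 members were called higher (0 also at an unadjusted p under 0.05 in limma), with 36, 46 and 46 called lower. The difference of bioB from bioC, 2 of these controls, was -2.17 ± 0.08 in log phase (SD, n = 3) and -0.79 to -0.89 on the 3 days. Without bioB the shifts were -0.05, -0.86 and -0.64, with 22, 43 and 43 members called lower and 2, 0 and 0 higher. Every rise given below is therefore a rise against the median gene. The signal of 8 control genes at their 3′ ends exceeded that at their 5′ ends by 0.86 ± 0.24 on day 2 and 1.65 ± 0.05 on day 6, and by 1.25 ± 0.07 and 1.28 ± 0.07 in log phase and on day 10 (SD over 3 arrays). Array 1 of day 2 had 1.13 and arrays 2 and 3 had 0.75 and 0.69. Where the 3′ to 5′ difference is used as a covariate below, its slope comes from the spread within a time, which was mostly that of day 2. Stationary-phase markers such as HSP12 and SPG4 were called higher on each day in 8 of 8 cases, with median changes of 3.22, 3.41 and 2.73. Array 3 of log phase stood apart in them, with HSP12 at 10.45 beside 9.09 and 9.00, HSP26 at 9.12 beside 7.78 and 7.74, and SPG4 at 7.11 beside 8.04 and 7.84. Without that array 27, 23 and 27 members were called lower on days 2, 6 and 10 and 7, 10 and 9 higher. Of 6 genes specific to MATa cells, 6 were called higher on day 2 and 5 lower on day 10 against log phase, and of 4 specific to MATalpha cells 3 were higher on day 2.

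Most of the replication genes were lower after log phase than in it, by modest amounts. On day 2, 32 of the 47 were called lower and 8 higher, beside 41.5% of all genes lower and 39% higher. On day 6, 26 were lower and 10 higher, where 41.1% of genes were lower and 41.6% higher. On day 10, 26 were lower and 9 higher, against 39.8% and 39.5% of genes. The median member changed by -0.25 on day 2, -0.21 on day 6 and -0.32 on day 10, while the median of all genes changed by -0.02, 0.00 and -0.01. Of the members 1, 4 and 6 changed by 2-fold or more on the 3 days, or 2.13%, 8.51% and 12.8%, beside 22.9%, 26.9% and 19.3% of all genes. Log phase was the highest of the 4 times for 25 members (53.2%, against 38% of genes). Day 2 was the lowest for 18 (38.3%, against 23.3% of genes) and day 10 for 17 (36.2%, against 17.1%). Over the 4 times 45 of 47 passed the F test and 95.5% of genes did, so that count says nothing particular about them.

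**Figure D1:**
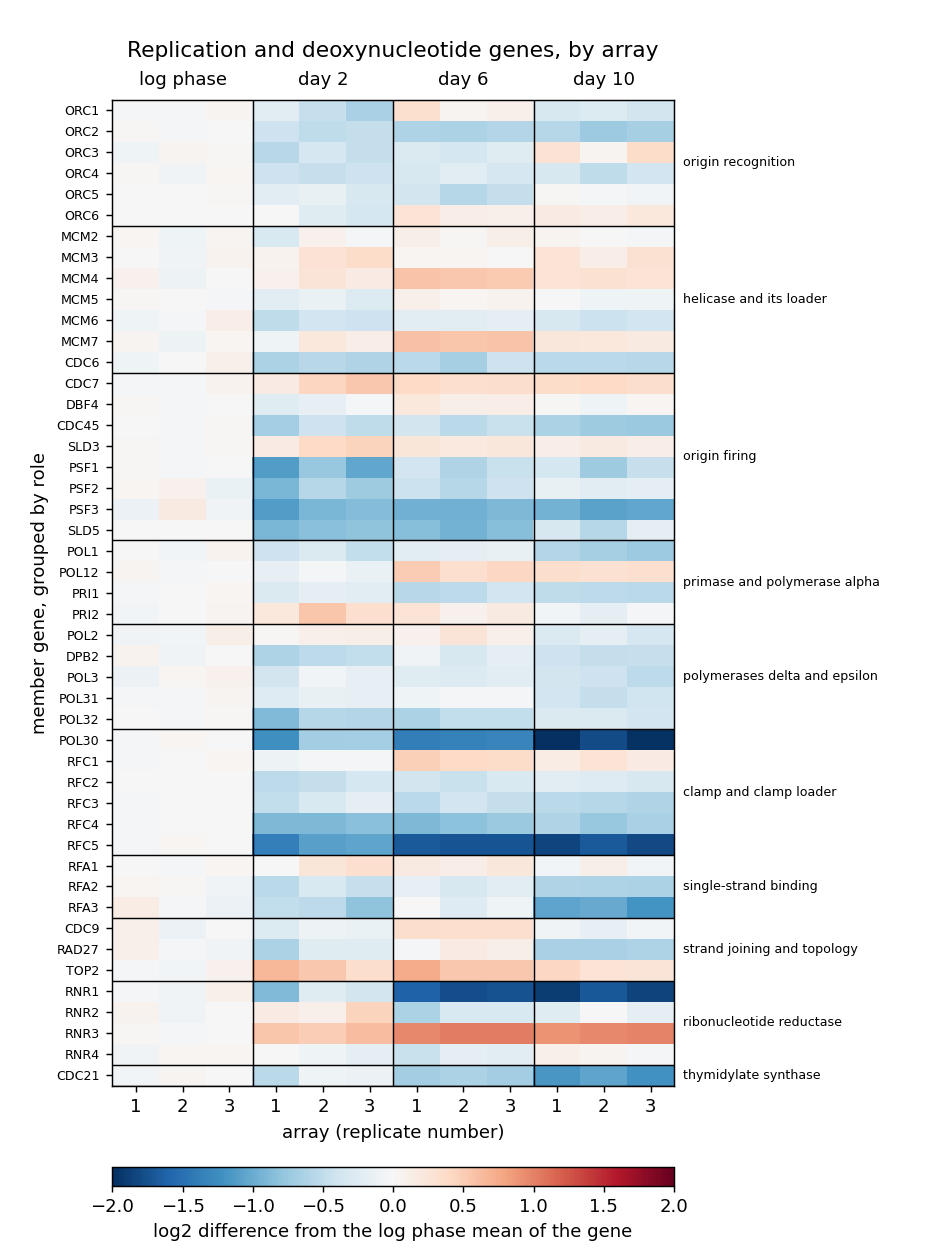
Each row is a gene and each column an array, coloured by the log2 difference from the gene's log phase mean (blue lower, red higher) and grouped by role. The darkest rows are POL30, RFC5 and RNR1 on days 6 and 10, RNR3 is the reddest row, and most other rows stay pale.

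**Figure D2:**
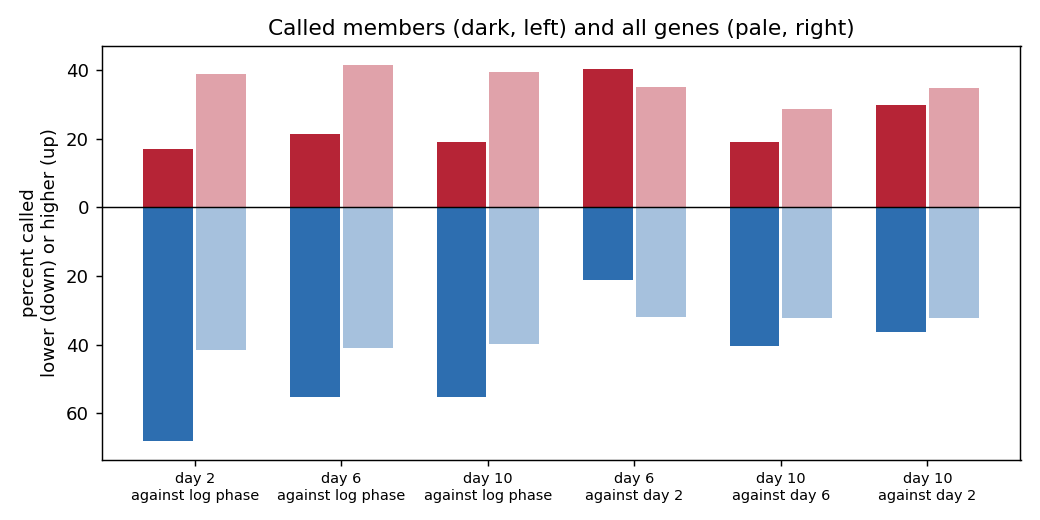
Bars give the percent of the 47 members (dark, left) and of all 5449 genes (pale, right) called lower (downwards) or higher (upwards) in each of the 6 comparisons of times. Members called lower outnumber those called higher in each comparison with log phase, and the reverse holds between days 2 and 6.

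The genes of the origin recognition complex, the 6 subunits that mark origins throughout the cell cycle, were all called lower on day 2, beside 41.5% of all genes. Their median change was -0.44. ORC2 read 7.96, 7.89 and 7.95 in log phase, 7.52, 7.43 and 7.46 on day 2, 7.31, 7.30 and 7.35 on day 6 and 7.37, 7.21 and 7.28 on day 10. Every later array lay below every log phase array, and days 6 and 10 overlapped. The change reached -0.62 ± 0.05 on day 6 (SE, limma adjusted p 1.48e-07) and -0.65 ± 0.05 on day 10 (adjusted p 1.25e-07). ORC1, the subunit with an ATP-binding site needed for loading, read 7.47, 7.49 and 7.55 in log phase, 7.28, 7.04 and 6.85 on day 2, 7.82, 7.57 and 7.61 on day 6 and 7.18, 7.23 and 7.14 on day 10. Its 3 day 6 arrays were above those of every other time, but only just above log phase. The day 6 change of ORC1 from log phase, 0.16 ± 0.09, was not called (limma adjusted p 0.126). ORC3 went the other way late, with 7.73, 7.88 and 7.84 in log phase, 7.26, 7.47 and 7.34 on day 2, 7.53, 7.47 and 7.57 on day 6 and 8.10, 7.87 and 8.18 on day 10. Its lowest day 10 array fell among the log phase arrays and above all those of days 2 and 6. ORC5 gave 7.43, 7.44 and 7.46 in log phase, 7.22, 7.30 and 7.13 on day 2, 7.07, 6.88 and 6.96 on day 6 and 7.46, 7.41 and 7.40 on day 10. Its day 10 arrays overlapped those of log phase. By day 10 the complex was therefore mixed, with ORC1, ORC2 and ORC4 called lower, ORC3 higher and ORC5 and ORC6 not called. Of all genes 39.8% were lower and 39.5% higher on that day.

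The loader gene CDC6 fell, and of the 6 genes of the Mcm2-7 helicase some were higher and some lower. CDC6 read 6.78, 6.85 and 6.96 in log phase, 6.22, 6.30 and 6.26 on day 2, 6.33, 6.19 and 6.45 on day 6 and 6.33, 6.32 and 6.30 on day 10. All 9 later arrays were below the log phase arrays and overlapped one another, with changes of -0.60 ± 0.07, -0.54 ± 0.07 and -0.54 ± 0.07 (adjusted p 2.37e-06, 5.87e-06 and 6.43e-06). Of the helicase genes 2 were called higher and 2 lower on day 2, 2 and 1 on day 6, and 3 and 1 on day 10, with medians of 0.00, 0.08 and 0.11. The shares of all genes were 39%, 41.6% and 39.5% higher and 41.5%, 41.1% and 39.8% lower. MCM6 was called lower on each day, by -0.44, -0.21 and -0.38, although its day 6 change was -0.14 (adjusted p 0.05) without array 3 of log phase and -0.15 (adjusted p 0.218) with the 3′ to 5′ covariate. MCM4 was called higher on each day, by 0.55 and 0.28 on days 6 and 10 and by less on day 2. MCM7 read 7.87, 7.71 and 7.85 in log phase, 7.73, 8.02 and 7.94 on day 2, 8.39, 8.37 and 8.39 on day 6 and 8.04, 8.02 and 7.99 on day 10. The day 6 arrays of MCM7 stood above all others, a change of 0.57 ± 0.07 from log phase (adjusted p 5.4e-06). MCM2 passed none of the 6 comparisons of times, with means between 7.81 and 7.98.

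Among the factors that fire origins, the 4 GINS genes fell furthest on day 2, and the kinase gene CDC7 rose. GINS (Psf1, Psf2, Psf3 and Sld5) is the part of the moving helicase that joins Mcm2-7 and Cdc45. PSF3 read 8.33, 8.63 and 8.37 in log phase, 7.32, 7.52 and 7.57 on day 2, 7.48, 7.47 and 7.54 on day 6 and 7.50, 7.37 and 7.41 on day 10. PSF1 read 7.97, 7.91 and 7.94, then 6.83, 7.17 and 6.90, then 7.56, 7.34 and 7.49, and then 7.59, 7.23 and 7.48 at the same times. Both lay below log phase on every later array, PSF3 at one level and PSF1 lowest on day 2. PSF2 gave 7.64, 7.68 and 7.47 in log phase, 6.68, 7.03 and 6.89 on day 2, 7.17, 7.04 and 7.19 on day 6 and 7.46, 7.38 and 7.40 on day 10. SLD5 gave 7.22, 7.24 and 7.23, then 6.31, 6.40 and 6.43, then 6.38, 6.28 and 6.38, and then 6.91, 6.66 and 7.04. These 2 were lowest on day 2 or day 6 and came part of the way back by day 10. All 4 were called lower on day 2 (median -0.91) and on day 6 (median -0.68), and 3 on day 10 (median -0.43). Of all genes 41.5%, 41.1% and 39.8% were called lower on these days. The changes on day 2 were -0.97 ± 0.10 for PSF1, -0.73 ± 0.08 for PSF2, -0.97 ± 0.08 for PSF3 and -0.85 ± 0.08 for SLD5, with adjusted p between 1.22e-07 and 2.56e-06. On day 10 PSF2 differed from log phase by -0.19 ± 0.08, which missed the threshold (adjusted p 0.0575), and 10 of 23 other settings called it, among them those without array 3 of log phase (-0.25, adjusted p 0.0233) and without array 1 or 2 of day 2 (adjusted p 0.0206 and 0.0372). With the 3′ to 5′ difference as a covariate the day 6 change of PSF2 was -0.28 (adjusted p 0.0522).

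CDC45, the partner of GINS in the helicase, was called lower on each day by -0.54, -0.45 and -0.69. CDC7 read 7.31, 7.31 and 7.41 in log phase, 7.50, 7.78 and 7.88 on day 2, 7.75, 7.68 and 7.69 on day 6 and 7.71, 7.75 and 7.71 on day 10. All 9 later arrays were above the log phase arrays, by 0.37 ± 0.08, 0.36 ± 0.08 and 0.38 ± 0.08 (adjusted p 0.000692, 0.000903 and 0.00068). With the 3′ to 5′ covariate the day 2 change of CDC7 was 0.12 (adjusted p 0.284). SLD3, a recruiter of Cdc45, was called higher by 0.33 on day 2, and in that same fit its change was 0.14 (adjusted p 0.164). DBF4, the activating subunit of the kinase, moved little from its log phase mean of 7.00. It was called lower by -0.15 on day 2 (adjusted p 0.0331) and higher by 0.16 on day 6 (adjusted p 0.0287), and was not called on day 10.

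**Figure D3:**
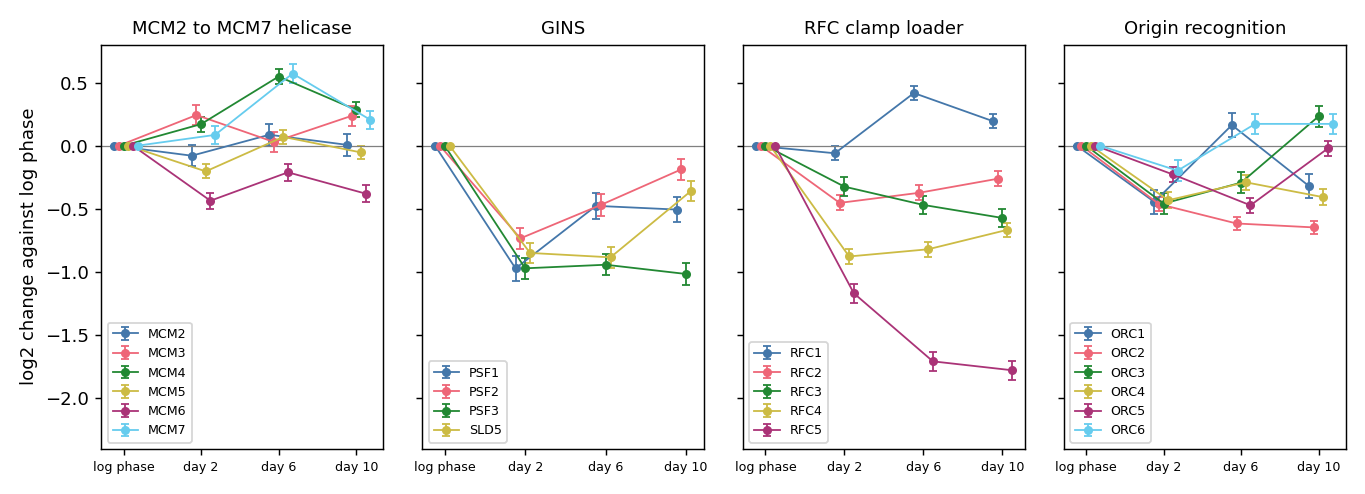
Points give the log2 change of each subunit gene against log phase (0 by construction) with its SE, in 4 complexes. The 4 GINS genes lie between -0.73 and -0.97 on day 2, the helicase genes lie on both sides of 0, RFC5 drops to -1.78 while RFC1 is above 0 on days 6 and 10, and the origin recognition genes spread apart after day 2.

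The subunit genes of polymerase alpha, and those of primase, went in opposite directions on some days. POL1, the catalytic subunit of polymerase alpha, read 8.45, 8.41 and 8.53 in log phase, 8.05, 8.17 and 7.98 on day 2, 8.26, 8.28 and 8.32 on day 6 and 7.88, 7.80 and 7.74 on day 10. POL12, its regulatory subunit, read 7.64, 7.54 and 7.57, then 7.43, 7.54 and 7.45, then 8.09, 7.92 and 8.01, and then 7.93, 7.89 and 7.93. POL1 was below log phase at each later time and lowest on day 10, whereas POL12 was above log phase on every array of days 6 and 10. On day 10 POL1 changed by -0.66 ± 0.06 (adjusted p 4.15e-07) and POL12 by 0.33 ± 0.06 (adjusted p 0.000149). PRI1, the catalytic primase subunit, was called lower on each day by -0.24, -0.49 and -0.52. PRI2, its partner, was called higher by 0.36 on day 2, or 0.25 with the 3′ to 5′ covariate (adjusted p 0.112).

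The 5 genes of polymerases delta and epsilon, which copy the lagging and leading strands, were called lower 4 times of 5 on day 2, 3 of 5 on day 6 and 5 of 5 on day 10, beside 41.5%, 41.1% and 39.8% of all genes, with medians of -0.20, -0.19 and -0.42. DPB2, the second subunit of polymerase epsilon, read 7.81, 7.67 and 7.73 in log phase, 7.12, 7.21 and 7.24 on day 2, 7.66, 7.42 and 7.55 on day 6 and 7.32, 7.26 and 7.29 on day 10. Its arrays of days 2, 6 and 10 were all below those of log phase, by -0.55 ± 0.07, -0.19 ± 0.07 and -0.45 ± 0.07 (adjusted p 4.06e-06, 0.0155 and 3.03e-05). The day 6 call of DPB2 was lost without array 1 of log phase (-0.16, adjusted p 0.0712) without array 2 of day 6 (-0.13, adjusted p 0.0832) and with the 3′ to 5′ covariate (-0.18, adjusted p 0.153). POL2, the catalytic subunit of epsilon, was called lower on day 10 by -0.28. POL32, the non-essential subunit of delta, was lowest on day 2 with -0.68, followed by -0.53 and -0.32.

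The clamp and one subunit of its loader carried 2 of the largest falls. POL30, which encodes PCNA, the ring that tethers polymerases, read 9.98, 10.04 and 9.99 in log phase, 8.78, 9.30 and 9.32 on day 2, 8.61, 8.65 and 8.68 on day 6 and 7.94, 8.21 and 8.03 on day 10. No arrays of any pair of times overlapped. The fall against log phase was -0.87 ± 0.12, -1.35 ± 0.12 and -1.94 ± 0.12 on the 3 days (adjusted p 1.19e-05, 1.19e-07 and 4.71e-09), 3.84-fold by day 10. RFC5 read 8.57, 8.65 and 8.60 in log phase, 7.24, 7.52 and 7.55 on day 2, 6.92, 6.89 and 6.89 on day 6 and 6.77, 6.92 and 6.80 on day 10. Its log phase arrays were above all others and its day 2 arrays in between, while days 6 and 10 overlapped. RFC5 fell by 1.17 ± 0.08, 1.71 ± 0.08 and 1.78 ± 0.08 (adjusted p 8.23e-09, 1.64e-10 and 1.93e-10), 3.43-fold by day 10. RFC2, RFC3 and RFC4 were called lower on each day as well, RFC4 by -0.88, -0.82 and -0.67. RFC1, the large subunit of the loader, differed by -0.06 on day 2 (adjusted p 0.329) and was called higher on days 6 and 10, by 0.42 and 0.19.

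Among the 3 genes of the single-strand binding protein RPA, RFA3 changed most. It read 9.17, 9.00 and 8.91 in log phase, 8.53, 8.50 and 8.22 on day 2, 9.02, 8.76 and 8.94 on day 6 and 7.97, 8.02 and 7.83 on day 10. Days 2 and 10 were below log phase on every array, and day 6 overlapped it. The day 10 change was -1.09 ± 0.10 (adjusted p 2.19e-07). RFA2 was called lower on each day, by -0.44, -0.24 and -0.62, and its day 6 change was -0.16 (adjusted p 0.172) with the 3′ to 5′ covariate. RFA1, the large subunit, kept its means between 8.42 and 8.61. It was called higher on day 2 by 0.19 (adjusted p 0.0459) and missed the F test over the 4 times (adjusted p 0.0534).

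Genes that finish and untangle the strands went in different directions. RAD27, the flap endonuclease that trims Okazaki fragments, read 8.38, 8.26 and 8.20 in log phase, 7.65, 8.04 and 8.04 on day 2, 8.24, 8.45 and 8.39 on day 6 and 7.64, 7.63 and 7.67 on day 10. CDC9, the ligase that seals them, read 7.72, 7.51 and 7.62, then 7.34, 7.52 and 7.49, then 7.96, 7.96 and 7.96, and then 7.55, 7.46 and 7.56. Both were low on days 2 and 10 beside day 6, and CDC9 on day 6 was above all its other arrays. TOP2, topoisomerase II, read 8.53, 8.51 and 8.65 in log phase, 9.22, 9.10 and 8.91 on day 2, 9.30, 9.11 and 9.10 on day 6 and 8.97, 8.84 and 8.82 on day 10. All 9 later arrays of TOP2 exceeded those of log phase, by 0.51 ± 0.08, 0.61 ± 0.08 and 0.32 ± 0.08 (adjusted p 7.3e-05, 1.4e-05 and 0.00373).

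The ribonucleotide reductase genes diverged: of the 2 large subunit genes RNR1 fell and its relative RNR3 rose, and the small subunits dipped on day 6. RNR1 read 8.63, 8.59 and 8.77 in log phase, 7.78, 8.43 and 8.29 on day 2, 7.05, 6.89 and 6.92 on day 6 and 6.76, 6.97 and 6.81 on day 10. Day 2 was below log phase with array 1 the lowest, and days 6 and 10 were lower still and overlapped. The changes were -0.50 ± 0.13, -1.71 ± 0.13 and -1.82 ± 0.13 (adjusted p 0.00301, 2.94e-08 and 2.29e-08), 3.52-fold by day 10. Without array 1 of day 2 the day 2 change was -0.31 (adjusted p 0.00365). RNR3 read 6.77, 6.71 and 6.75 in log phase, 7.30, 7.24 and 7.35 on day 2, 7.71, 7.77 and 7.77 on day 6 and 7.64, 7.70 and 7.74 on day 10. Each later array was above log phase and each array of days 6 and 10 was above day 2. RNR3 rose by 0.55 ± 0.05, 1.01 ± 0.05 and 0.95 ± 0.05 (adjusted p 3.06e-07, 6.46e-10 and 1.81e-09), 2.01-fold on day 6, where it was the member with the largest rise. Centred on the hybridisation controls, its changes were 0.13, -0.18 and -0.02, none of them called. Without bioB they were 0.51, 0.15 and 0.31, of which the first was called.

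RNR2 read 9.26, 9.12 and 9.18 in log phase, 9.35, 9.29 and 9.62 on day 2, 8.55, 8.89 and 8.87 on day 6 and 8.94, 9.17 and 9.01 on day 10. RNR4 read 9.81, 9.92 and 9.92, then 9.90, 9.80 and 9.70, then 9.45, 9.69 and 9.66, and then 9.98, 9.94 and 9.86. Both were lowest on day 6, and on day 10 both overlapped log phase. The day 6 changes were -0.41 ± 0.10 for RNR2 (adjusted p 0.00226) and -0.29 ± 0.07 for RNR4 (adjusted p 0.00274), and with the 3′ to 5′ covariate that of RNR2 was -0.25 (adjusted p 0.172). On day 2 the differences of 0.24 ± 0.10 for RNR2 and -0.08 ± 0.07 for RNR4 missed the threshold (adjusted p 0.0515 and 0.308), as did -0.14 ± 0.10 and 0.04 ± 0.07 on day 10 (adjusted p 0.224 and 0.589). RNR2 on day 2 passed it, at 0.24 to 0.30, when array 1 or 2 of day 2, array 1 of day 6 or array 2 of day 10 was left out (adjusted p 0.0275 to 0.0463).

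CDC21, thymidylate synthase, the enzyme that makes dTMP from dUMP, read 7.26, 7.38 and 7.33 in log phase, 6.78, 7.24 and 7.22 on day 2, 6.63, 6.69 and 6.62 on day 6 and 6.17, 6.27 and 6.12 on day 10. Its level stepped down with no overlap between any pair of times, though arrays 2 and 3 of day 2 lay close to log phase. The changes were -0.25 ± 0.10, -0.68 ± 0.10 and -1.14 ± 0.10 (adjusted p 0.0362, 2.38e-05 and 1.73e-07). The day 2 call was lost without array 1 of that day (-0.10, adjusted p 0.166) and without array 2 or 3 of log phase (-0.22 and -0.24, adjusted p 0.104 and 0.0728).

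**Figure D4:**
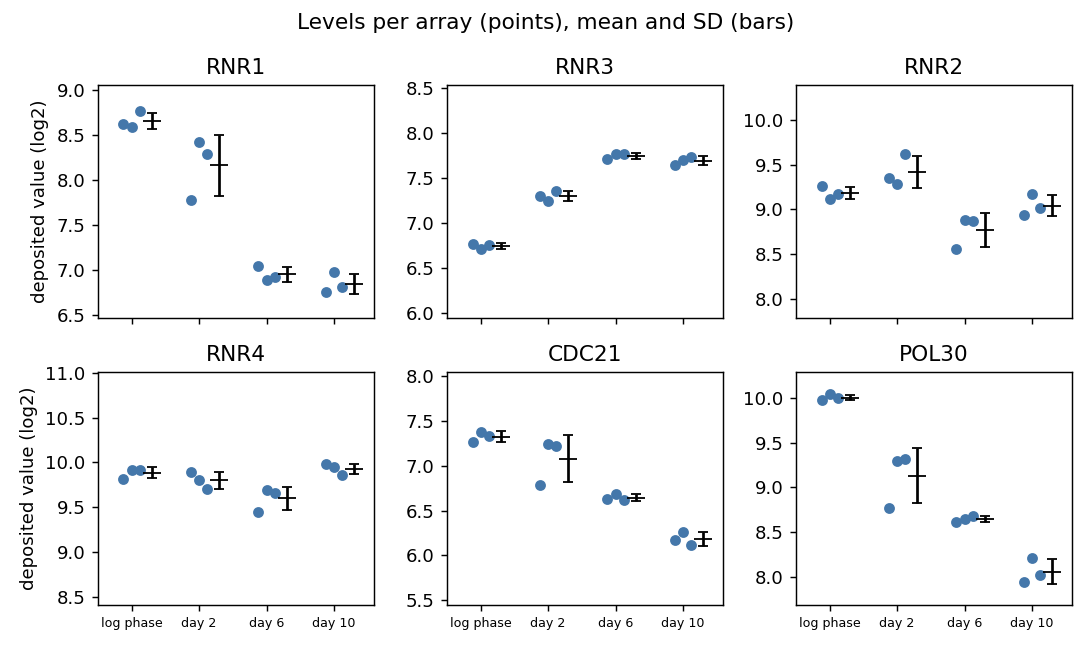
Points are the deposited log2 values on each of the 3 arrays at each time, with the mean and SD at their right, for the 4 ribonucleotide reductase genes, CDC21 and POL30, on axes of equal span. RNR1 drops between day 2 and day 6, RNR3 climbs, RNR2 and RNR4 dip on day 6, and CDC21 and POL30 step down at each time, with array 1 of day 2 below arrays 2 and 3.

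Between days 2 and 6 more members were called higher than lower, with a small median change. Against day 2, day 6 had 19 members called higher (40.4%) and 10 lower (21.3%), beside 35.2% and 31.9% of genes. The median member changed by 0.09. Centred on the hybridisation controls, 0 members were called higher (0 also at an unadjusted p under 0.05 in limma) and the median member changed by -0.68. ORC1, POL12 and CDC9 rose most, by 0.61 ± 0.09, 0.53 ± 0.06 and 0.51 ± 0.07 (adjusted p 8.83e-05, 4.01e-06 and 1.66e-05). RNR1, RNR2 and RFC5 fell most, by -1.21 ± 0.13, -0.65 ± 0.10 and -0.54 ± 0.08 (adjusted p 3.34e-06, 0.00011 and 3.95e-05). The 3′ to 5′ signal of the control genes also differed most between these days, and with it as a covariate 12 members were higher and 0 lower (2 lower at an unadjusted p under 0.05 in limma). In that fit RNR1 changed by -0.33 (adjusted p 0.344), RNR2 by -0.32 (adjusted p 0.403), RFC5 by 0.00 and ORC1 by -0.01, and POL30 and CDC21 turned from -0.48 and -0.43 to 0.48 (adjusted p 0.0426) and 0.35 (adjusted p 0.0988). The slope of the covariate came from spread within a time, largest on day 2, where array 1 had 1.13 beside 0.75 and 0.69. It was carried over the gap from 0.86 on day 2 to 1.65 on day 6. These values thus rest largely on the day 2 arrays, array 1 above all.

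From day 6 to day 10 more members were called lower than higher, 19 and 9, beside 32.1% and 28.8% of genes. The median member changed by -0.11, or by 0.12 when centred on the hybridisation controls. RFA3, RAD27 and POL30 fell most, by -0.97 ± 0.10, -0.71 ± 0.10 and -0.59 ± 0.12 (adjusted p 2.66e-06, 3.21e-05 and 0.000773). The fall of POL30 was not called when centred on the hybridisation controls (-0.37, limma adjusted p 0.074), nor without bioB (-0.38, adjusted p 0.0785). ORC3, SLD5 and ORC5 rose most, by 0.53 ± 0.08, 0.53 ± 0.08 and 0.45 ± 0.06 (adjusted p 0.000106, 9.69e-05 and 3.55e-05). RNR4 rose by 0.33 ± 0.07 (adjusted p 0.00171). The rise of RNR2 by 0.27 ± 0.10 (adjusted p 0.0368) was not called without array 1 of day 6 (0.16, adjusted p 0.179), array 2 of day 10 (0.21, adjusted p 0.134) or array 3 of day 10 (0.29, adjusted p 0.064). Without array 1 of day 6, 5 rather than 9 members were called higher.

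Set against day 2, day 10 had 17 members lower and 14 higher, beside 32.1% and 34.9% of genes. RNR1 and POL30 were the 2 that changed 2-fold or more, by -1.32 ± 0.13 and -1.07 ± 0.12 (adjusted p 1.5e-06 and 4.1e-06), and CDC21 followed with -0.90 ± 0.10 (adjusted p 4.54e-06). ORC3, PSF2 and SLD5 rose by 0.69 ± 0.08, 0.55 ± 0.08 and 0.49 ± 0.08 (adjusted p 7.76e-06, 8.45e-05 and 0.000139). Centred on the hybridisation controls, the changes of these genes were 0.14, -0.0014 and -0.057, none of them called. Without bioB they were 0.10, -0.048 and -0.10, again with none called. Across days 2, 6 and 10 the F test called 40 of the 47, and 85% of genes.

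Differences between paired genes, mostly subunits of 1 enzyme, were taken within each array, where array-wide scaling cancels, and their 4 times were compared with an exact permutation test of all 15400 ways to split 12 arrays into 4 groups of 3, adjusted over 7 pairs. RNR3 moved most against its relative: its difference from RNR1 grew by 1.05 on day 2, 2.72 on day 6 and 2.77 on day 10 (exact permutation p 0.000325, adjusted 0.000758). POL12 grew against POL1 by 0.29, 0.60 and 0.99, with no overlap between times, and reached 6.49e-05, the smallest exact permutation p these splits can give (adjusted 0.000455). PRI2 grew against PRI1 by 0.60, 0.67 and 0.43 (exact permutation p 0.00247, adjusted 0.00288). DBF4 changed against CDC7 by -0.53, -0.20 and -0.38 (exact permutation p 0.000325, adjusted 0.000758). POL32 changed against POL31 by -0.49, -0.49 and 0.11, and DPB2 against POL2 by -0.63, -0.34 and -0.17 (exact permutation p 0.0024 and 0.00169, adjusted 0.00288 for both). RNR4 against RNR2, the pair with the smallest span, changed by -0.32, 0.13 and 0.19 (exact permutation p 0.00461, adjusted 0.00461). The genes of all 7 pairs thus changed unequally over time, and unrelated pairs of genes were not compared. The pairs were chosen with earlier results of these data known, and 95.5% of all genes passed the F test over the 4 times. These p-values therefore do not set the 7 pairs apart from other pairs of genes. A 3′ to 5′ effect that differs between genes does not cancel within an array, and that covariate was not applied to the pairs. With it, RNR1 alone went from -1.21 to -0.33 for day 6 against day 2.

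**Figure D5:**
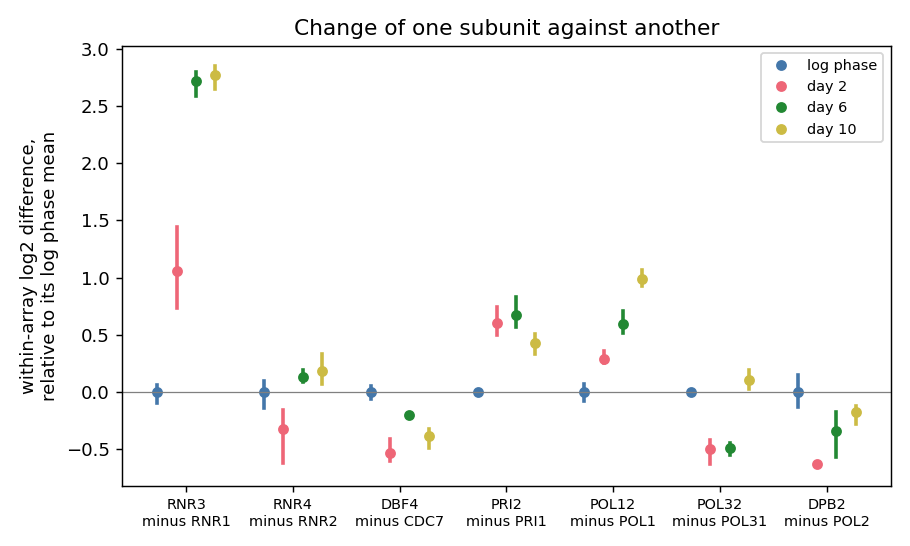
Points give the mean within-array log2 difference between 2 subunit genes relative to its log phase mean, and lines the range over 3 arrays, for 7 pairs at 4 times. RNR3 against RNR1 is more than 2.5 above its log phase value on days 6 and 10, and POL12 against POL1 climbs at each time.

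Other genes of deoxynucleotide supply, 25 in number, were called higher 12 times and lower 11 times on day 2, 10 and 10 on day 6 and 7 and 13 on day 10, where 39%, 41.6% and 39.5% of all genes were higher and 41.5%, 41.1% and 39.8% lower. DUT1, the dUTPase that supplies dUMP to thymidylate synthase, changed by -2.10 ± 0.10 on day 2, from a mean of 10.34 to 8.23. DCD1, the dCMP deaminase that makes dUMP, changed by -1.99 ± 0.07 and CDC8, the thymidylate kinase next after CDC21, by -1.14 ± 0.08 on day 2. These 3 falls had limma adjusted p between 2.57e-11 and 1.73e-08. CDC8 was not picked by its F, since ADK1, GUK1 and ROX1 of the same list had a higher one. The means of those genes went from 11.04, 10.63 and 7.49 in log phase to 10.05, 9.50 and 8.79 on day 2. YNK1, the nucleoside diphosphate kinase of the last step to dTTP, named here after its values were seen, was higher on day 2 by 0.63 ± 0.07 (limma adjusted p 2e-06). Of the regulators of the reductase, RFX1, the repressor of RNR2, RNR3 and RNR4, rose by 0.63 ± 0.06, 0.57 ± 0.06 and 0.47 ± 0.06 on the 3 days. DIF1, which carries the small subunits into the nucleus, went from a mean of 8.12 in log phase to 7.12 on day 2 (limma adjusted p 1.03e-07) and was lower by -0.56 ± 0.08 and -0.38 ± 0.08 on days 6 and 10. DUN1, the checkpoint kinase upstream of Rfx1, was lower by -0.31, -0.58 and -0.31, each called. SML1, the protein inhibitor of Rnr1, differed by 0.20 on day 2 (adjusted p 0.0496) and by 0.09 without array 3 of that day (adjusted p 0.258). Most other settings lost that call, with 0.17 under quantile normalization (adjusted p 0.0835), 0.18 under median centring (adjusted p 0.0833) and 0.01 with the 3′ to 5′ covariate (adjusted p 0.929). HUG1, a damage-induced gene, lay close to background, with means of 5.86 in log phase and 5.63 on day 10, and no change is given for it.

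The 22 regulators of entry into S phase had 8, 12 and 13 called lower and 6, 5 and 3 higher on days 2, 6 and 10, beside 41.5%, 41.1% and 39.8% of all genes lower and 39%, 41.6% and 39.5% higher. MBP1, the DNA-binding subunit of the factor MBF that drives many replication genes, was not called in any of the 6 comparisons, with changes of 0.01, -0.18 and -0.13 against log phase. The day 6 change of MBP1 passed the threshold without array 1 or 3 of day 2 (adjusted p 0.0411 and 0.0472) or array 1 of day 6 (-0.22, adjusted p 0.0425), in a fit of 6 arrays alone (adjusted p 0.0258), with quantile normalization (-0.28, adjusted p 0.0108), with median centring (-0.23, adjusted p 0.0257) and with the 3′ to 5′ covariate (-0.34, adjusted p 0.0264). With quantile normalization the day 10 change of MBP1 passed too (-0.22, adjusted p 0.0399). Centring on the hybridisation controls called it lower on days 6 and 10, and on day 2 with bioB included. SWI6, its partner, and SWI4, of the related factor SBF, were called lower against log phase on day 10, by -0.24 and -0.35. NRM1, the co-repressor that closes MBF transcription, was lower by -0.99 ± 0.06, -0.94 ± 0.06 and -0.93 ± 0.06. CLN3 and CDC34 of the same list went the other way, against the median gene. CLN3 went from a mean of 8.01 in log phase to 9.15, 8.79 and 9.11 on days 2, 6 and 10. At the same times CDC34 went from 8.06 to 8.94, 9.46 and 9.39. The S-phase cyclin genes CLB5 and CLB6 were called lower on each day, CLB5 by -0.46, -0.40 (-0.19 with the 3′ to 5′ covariate, adjusted p 0.145) and -0.82 and CLB6 by -1.49, -1.76 and -1.62.

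A further 35 genes of the fork and its assembly were called lower 14 times and higher 5 times on day 2, 12 and 17 on day 6 and 18 and 12 on day 10, against the same shares of all genes. From day 2 to day 6, 25 of them were higher and 4 lower, beside 35.2% and 31.9% of all genes. From day 6 to day 10, 24 were lower, beside 32.1% of all genes. TAH11, which encodes Cdt1, the other helicase loader, changed by -0.30 on day 2 and by 1.03 ± 0.09 on day 6 against log phase (adjusted p 1e-07). RNH203, a subunit of RNase H2, was lower by -0.78, -0.33 and -1.43.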

How the data were processed

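Per the labels' protocols, total RNA was extracted from frozen cell pellets, labelled with biotin and hybridised to Affymetrix arrays. The deposited values are 1 per probe set, which the authors summarised with PLIER, a model over the probes of a set, per the submitters' processing notes. Its version, background step and array scaling stay unknown, being not given in the sources used here. Values in the deposited table were read as log2 from its range of 5.11 to 13.79, and since no value is near 0, changes of dim genes are understated.

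Of 10928 probe sets, 213 were controls, 3470 had no gene in the platform annotation and 1 had several. The rest included 5498 probe sets for 5449 S. cerevisiae genes, matched through gene IDs to a RefSeq table of a reference strain that is not the strain studied. Where a gene had several, the set with the highest mean stood for it. Arrays of 1 time correlated at 0.981 to 0.998, and 0 pairs were identical. The precision is limited by the number of arrays.

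The 4 times were the coefficients of one limma fit (version 3.58.1, R 4.3.3) over the 12 arrays. It had 8 residual degrees of freedom (12.9 after moderation) and a prior SD of 0.0867. Adjustment for multiple tests was by Benjamini-Hochberg within each test. The permutation test over subunit pairs was enumerated in Python 3.11.15 with NumPy 2.4.6. The fit was checked on simulated data. The members, the gene lists and the pairs were chosen with earlier results of these data known. Values on each array are given for RNR1 to RNR4, the member with the highest F of each role, and the 3 called members with the largest rise and fall in each comparison. Other genes are named when they have one of the 3 highest F in their list or were set out by name. CDC8, YNK1, GUK1, ROX1, CLN3 and CDC34 are exceptions to this rule, and not every gene with a high F is named. Members also named without values on each array complete a complex. Alternatives were quantile normalization, median centring, centring on the hybridisation controls, an offset of 16 and dim genes left out. Others were a trend with a robust prior, 6 arrays alone, a replicate block, a 3′ to 5′ covariate, all probe sets and each array left out. No sequence, genome or coordinate was used here, so a planned search for promoter motifs was not run. Deviations of same-numbered arrays correlated over 0.1 in 5 of 18 pairs, so numbers were not taken to pair them.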

Additional observations from a re-analysis of the deposited data

How the results depend on the processing

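Of 320 recomputed counts of members 294 stayed within 1.5 times, as did 1181 of 1280 counts of the other lists. All 7 subunit pairs kept an exact permutation p of at most 0.0247 under 14 settings added after seeing the data, RNR3 against RNR1 with a span of 2.54 to 2.83. These 14 were quantile normalization, the offset of 16 and each of the 12 arrays left out. The 3′ to 5′ covariate was not applied to the pairs. Centred on the hybridisation controls, the members called higher were 0 on days 2, 6 and 10 against log phase, on day 6 against day 2 and on day 10 against day 2 (0 in each also at an unadjusted p under 0.05), and those called lower were 46 on day 6 and 46 on day 10 against log phase, 38 on day 6 and 36 on day 10 against day 2 and 2 on day 10 against day 6. Without bioB the members higher were 2 on day 2 and 0 on days 6 and 10 against log phase and 0 on days 6 and 10 against day 2, and those lower were 43, 43, 40, 38 and 2. Values that turned below 0 with all hybridisation controls were in day 2 against log phase CDC7 -0.047, SLD3 -0.088, PRI2 -0.059 and SML1 -0.22, and in day 6 against log phase RNR3 -0.18, TOP2 -0.58, MCM7 -0.62, TAH11 -0.16, MCM4 -0.64, CDC7 -0.83, RFC1 -0.77 and RFX1 -0.62, and in day 10 against log phase RNR3 -0.019, CDC7 -0.59, POL12 -0.64, MCM4 -0.69, RFC1 -0.77, TOP2 -0.65 and RFX1 -0.50, and in day 6 against day 2 ORC1 -0.16, POL12 -0.24 and CDC9 -0.26, and in day 10 against day 2 PSF2 -0.0014 and SLD5 -0.057. Without bioB they were in day 6 against log phase TOP2 -0.25, MCM7 -0.28, MCM4 -0.31, CDC7 -0.50, RFC1 -0.44 and RFX1 -0.28, and in day 10 against log phase CDC7 -0.27, POL12 -0.31, MCM4 -0.36, RFC1 -0.45, TOP2 -0.33 and RFX1 -0.17, and in day 6 against day 2 ORC1 -0.20, POL12 -0.27 and CDC9 -0.30, and in day 10 against day 2 PSF2 -0.048 and SLD5 -0.10. With the 3′ to 5′ covariate 2 members were higher on day 2 against log phase, 12 higher and 0 lower on day 6 against day 2 (2 lower at an unadjusted p under 0.05), 5 higher on day 10 against day 6 and 8 lower on day 10 against day 2, and in day 6 against day 2 RFC5 became 0.0018, ORC1 -0.0060, POL30 0.48 and CDC21 0.35. The cause was not tested in any of these. With 1 array left out, members lower ran from 27 to 32, 23 to 26 and 26 to 27 on days 2, 6 and 10 against log phase and members higher from 6 to 10, 9 to 13 and 7 to 11, and day 10 against day 6 had 5 to 9 higher. The replicate block left 32 lower and 9 higher on day 2 against log phase and 18 lower and 13 higher on day 10 against day 2, with the other counts as before, and turned the calls of RNR2 (on) and SML1 (off) on day 2. Deviations of 18 same-numbered pairs of arrays correlated at -0.29 to 0.39, with 5 over 0.1. The number of arrays, 3 a time, limits small changes.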

Other observations

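Of 32 measured genes of the DNA damage response and repair, 17 were called higher and 8 lower against log phase on day 2, 22 and 6 on day 6, and 19 and 6 on day 10, with median changes of 0.20, 0.37 and 0.29. Of all genes 39%, 41.6% and 39.5% were called higher and 41.5%, 41.1% and 39.8% lower. RAD2, the nuclease of nucleotide excision repair, had arrays without overlap between log phase and each later day and rose by 0.57 ± 0.06, 1.53 ± 0.06 and 1.65 ± 0.06 (SE, limma adjusted p 4.81e-07, 2.74e-11 and 2.64e-11). From day 6 to day 10, 14 of the 32 were called lower and 5 higher, beside 32.1% and 28.8% of all genes. These are changes against the median gene.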
